A study of Mus musculus with 12 samples.

Results

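The small heat shock protein genes Hspb1, Hspb2, Hspb3, Hspb6, Hspb7, Hspb8 and Cryab, together with the co-chaperone gene Bag3, were followed in mouse calf muscle at rest and after contraction. They were chosen as a named family and matched by symbol, which found 8 of 8 among the 47643 genes of the count table. Messenger RNA of the gastrocnemius of female C57BL/6J mice aged 11 weeks was counted from its 3′ ends. The 6 animals were 3 controls and 3 that over-expressed c-myc (Myc), and each gave an uncontracted left leg and a contracted right leg, which makes 12 libraries, 3 in each combination of genotype and leg. All contracted legs were right legs, so side and contraction cannot be told apart. The construct behind the over-expression, the cells it acts in, the contraction protocol and the time between contraction and sampling are not given in the sources used here. Nothing in the labels says whether the animals of a group shared a litter or a treatment day.

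Small heat shock proteins are chaperones that need no ATP. They assemble through a shared alpha-crystallin domain, hold unfolding proteins in a soluble state and pass them to the HSP70 machinery for refolding or disposal. In striated muscle they sit on desmin, actin, titin and filamin at the Z-disc, where contraction strains proteins mechanically. Bag3 joins HSPB8 to HSP70 and hands damaged filamin to autophagy, a route called chaperone-assisted selective autophagy. Many heat shock genes carry binding sites for heat shock factor 1, built from GAA and its complement TTC in alternating orientation.

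The promoters below are shown because 5 of the 8 genes rose with contraction and 3 did not pass the test. RefSeq promoter windows on GRCm38.p6, from 250 bases before to 50 bases after the transcript start, were matched for 6 of the 8 genes (Hspb1, Hspb3, Hspb6, Hspb7, Hspb8 and Bag3). Capitals mark each match to GAANNTTC, a pair of facing heat shock units.
Hspb1: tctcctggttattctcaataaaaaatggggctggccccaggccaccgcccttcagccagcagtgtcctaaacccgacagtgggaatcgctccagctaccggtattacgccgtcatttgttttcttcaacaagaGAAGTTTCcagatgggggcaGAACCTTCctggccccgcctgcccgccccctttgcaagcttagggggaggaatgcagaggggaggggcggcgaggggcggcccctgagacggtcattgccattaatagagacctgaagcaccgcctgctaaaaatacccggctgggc
Hspb8: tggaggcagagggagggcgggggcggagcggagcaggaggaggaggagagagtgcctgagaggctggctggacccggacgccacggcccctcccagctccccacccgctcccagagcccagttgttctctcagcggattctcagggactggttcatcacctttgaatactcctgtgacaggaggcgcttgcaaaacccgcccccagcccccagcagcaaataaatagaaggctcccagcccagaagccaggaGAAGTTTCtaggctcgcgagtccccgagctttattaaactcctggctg
Bag3: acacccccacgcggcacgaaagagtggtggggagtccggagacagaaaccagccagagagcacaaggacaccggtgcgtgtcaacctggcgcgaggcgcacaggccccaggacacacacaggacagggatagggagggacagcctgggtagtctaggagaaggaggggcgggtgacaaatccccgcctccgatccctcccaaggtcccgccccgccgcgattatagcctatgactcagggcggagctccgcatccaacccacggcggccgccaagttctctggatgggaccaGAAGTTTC
Hspb7: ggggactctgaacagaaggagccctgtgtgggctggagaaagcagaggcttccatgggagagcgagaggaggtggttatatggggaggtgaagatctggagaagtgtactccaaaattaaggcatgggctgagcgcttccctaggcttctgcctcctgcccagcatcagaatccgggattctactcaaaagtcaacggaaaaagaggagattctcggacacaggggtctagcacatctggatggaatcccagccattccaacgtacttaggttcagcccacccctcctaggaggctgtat
Hspb6: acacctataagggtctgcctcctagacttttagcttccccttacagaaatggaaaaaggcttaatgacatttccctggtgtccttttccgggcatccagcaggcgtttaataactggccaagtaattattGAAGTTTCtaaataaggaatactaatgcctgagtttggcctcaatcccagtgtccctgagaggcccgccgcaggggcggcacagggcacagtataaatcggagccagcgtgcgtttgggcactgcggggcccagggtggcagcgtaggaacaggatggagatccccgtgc
Hspb3: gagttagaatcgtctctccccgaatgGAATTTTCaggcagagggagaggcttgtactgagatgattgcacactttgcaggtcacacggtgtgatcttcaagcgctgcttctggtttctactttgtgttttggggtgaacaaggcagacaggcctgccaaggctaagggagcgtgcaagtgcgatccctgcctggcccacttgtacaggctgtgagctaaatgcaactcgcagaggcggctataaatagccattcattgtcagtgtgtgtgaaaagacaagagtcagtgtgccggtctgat
The Hspb1 window is chr5:135887669-135887968 on the plus strand, the Hspb8 window chr5:116422815-116423114 on the minus strand and the Bag3 window chr7:128523333-128523632 on the plus strand. The Hspb7 window is chr4:141420529-141420828 on the plus strand and the Hspb3 window chr13:113663627-113663926 on the minus strand. The Hspb6 window shown is chr7:30553051-30553350 on the plus strand, the second of 2 in the table, and the first held no match. GAANNTTC occurred in the windows of Hspb1, Hspb3, Hspb6, Hspb8 and Bag3, and in 7.86% of all 32851 promoter windows. Hspb1 held 2 matches, at positions -117 to -110 and -97 to -90 from the start. Hspb8 held its match at 3 to 10, Bag3 at 43 to 50, Hspb6 at -120 to -113 and Hspb3 at -224 to -217. The same 8 letters, GAAGTTTC, stood in the windows of Hspb1, Hspb8, Bag3 and Hspb6. This was noticed only once the sequences had been read, and those letters occurred as written in 0.633% of all windows and on either strand in 1.21%. Neither TTCNNGAA, the opposite arrangement (8.52% of all windows), nor CACGTG, the core of the E-box bound by Myc (7.15%), occurred in any window of these 6 genes. Each of the 3 motifs reads the same on both strands, so both strands were searched, and no match overlapped another. Matches to GAANNTTC were present in genes that rose and in genes that did not pass (Hspb3 and Hspb6), and absent from Hspb7, which rose.

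On GRCm38 with GENCODE M21, Hspb1 lies at chr5:135887919-135889563 and Hspb8 at chr5:116408491-116422864. Hspb7 lies at chr4:141420779-141425311, Hspb3 at chr13:113662896-113663676 and Bag3 at chr7:128523616-128546981. Hspb6, at chr7:30552178-30555443, overlaps Proser3, Gm38670 and Lin37, by at most 122 bases of exon. Hspb2 (chr9:50751078-50752354, minus strand) and Cryab (chr9:50751325-50756636, plus strand) are neighbours whose exons overlap by 252 bases on opposite strands. The strand setting of the counting is not stated, so reads of the shared stretch cannot be told apart.

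Library totals were 1371732 to 1643216 reads (median 1526524), and values for single libraries are CPM, the reads of a gene scaled to a common library total. A gene with 0 reads could still have had up to 3, or 1.83 to 2.19 CPM. This assay reads the 3′ end of a transcript rather than its whole length, so CPM was compared between genes without division by length. Skeletal fibre markers were abundant in every library, at 91843 to 114540 CPM summed over 9 genes. Myc itself had 0, 1 and 0 reads in uncontracted controls and 11, 9 and 9 in uncontracted Myc legs. It had 1, 10 and 59 reads in contracted controls 1, 2 and 3, against 32, 0 and 2 in contracted Myc legs 1, 2 and 3. In the 4 contracted libraries numbered 2 and 3 the Myc reads thus go against the labels. Whether a mix-up of labels or another cause lies behind this was not tested. The labels of these libraries are treated as in doubt, and results that use contracted legs are followed by values without these 4. The contraction effect averaged over genotypes is led with, because it sets all contracted against all uncontracted legs. Values within animals pair legs by title, so for the animals of those 4 libraries they rest on labels in doubt.

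At rest the family spanned a wide range of transcript levels. Hspb6, also called HSP20, was the most abundant, at 2793 to 3044 CPM (median 2858) over the 6 uncontracted libraries. Hspb8 followed at 635 to 915 CPM (median 730) and Cryab, which encodes alpha-B-crystallin, at 333 to 610 CPM (median 431). Hspb7, a heart and muscle member of the family, stood at 198 to 242 CPM (median 219) and Bag3 at 123 to 136 CPM (median 130). Hspb1, which encodes the actin- and desmin-binding HSP25, reached only 32.1 to 57.5 CPM (median 43.2). Hspb2 and Hspb3, whose proteins form a complex with each other in muscle, were lowest, at medians of 22.2 and 22.0 CPM. Ranges of neighbouring genes in this order overlapped only for Hspb2 and Hspb3.

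**Figure D1:**
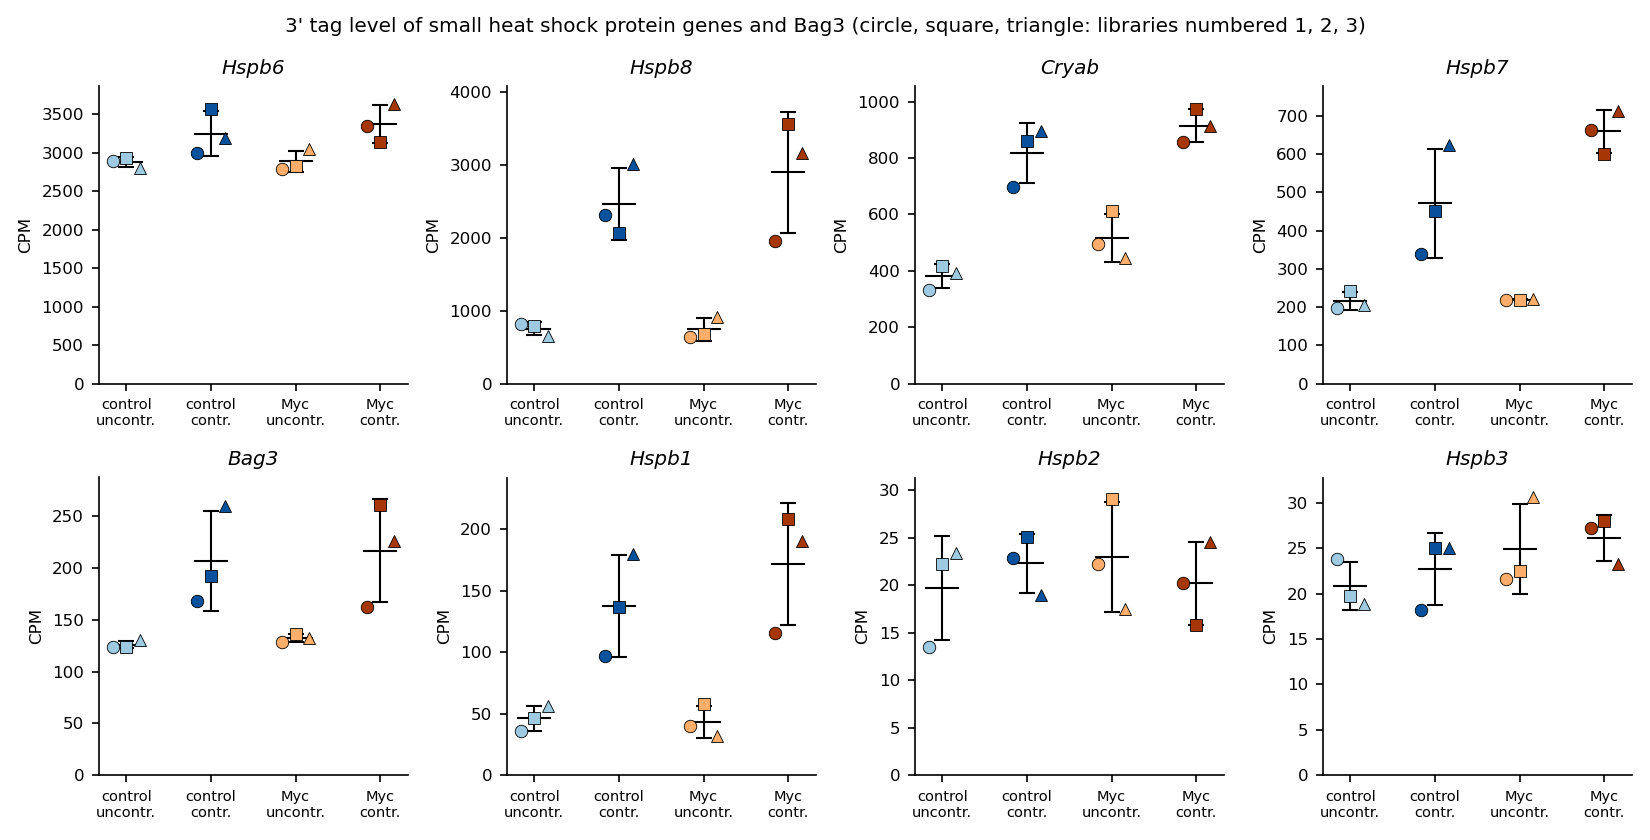
Levels of the 8 genes in the 12 libraries, in CPM on linear axes from 0 that differ between panels. Points are libraries (circle, square and triangle for those numbered 1, 2 and 3 in each group), and lines are the mean ± SD of 3. The contracted points of Hspb8, Hspb1, Hspb7, Cryab and Bag3 lie above all uncontracted points of the same gene.

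After contraction 5 of the 8 genes rose, none fell and 3 did not pass the test, in the effect averaged over genotypes. The genes that rose were Hspb8, Hspb1, Hspb7, Cryab and Bag3. Over all 6676 genes tested, 5.71% were called higher and 7.47% in either direction, at a Benjamini-Hochberg adjusted p under 0.05 from edgeR's quasi-likelihood test. The median log2 change was 0.81 over the 8 genes and -0.00337 over all genes tested. All 8 passed the low-count filter. In those same 5 genes every contracted library lay above every uncontracted one on TMM-scaled levels, against 2.95% of all genes. Without the 4 libraries in doubt the median log2 change was 0.59 over the 8 genes and -0.02 over 7282 genes. That leaves 1 contracted library a genotype. The spread behind each SE and edgeR p given without the 4 therefore comes from resting legs and is assumed for contracted ones. In whole muscle, more RNA per cell and more cells of a type cannot be told apart.

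Hspb8, the small heat shock protein that partners Bag3, had 818, 788 and 647 CPM in uncontracted controls and 2312, 2063 and 3012 CPM in contracted ones. In Myc animals it had 635, 673 and 915 CPM uncontracted and 1958, 3559 and 3167 CPM contracted. The lowest contracted leg thus held more than double the CPM of the highest resting leg, in either genotype. Its averaged log2 change was 1.80 ± 0.15 (SE, 6 against 6 libraries; edgeR adjusted p = 1.80e-08), and within animals the contracted leg held 2.62 to 5.29 times the CPM of the resting leg. The log2 change was 1.51 ± 0.15 when the 4 libraries were left out.

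Bag3 had 123, 124 and 130 CPM in uncontracted controls and 129, 136 and 132 CPM in uncontracted Myc legs. Contracted controls had 168, 192 and 260 CPM and contracted Myc legs 163, 261 and 226 CPM. The resting values were tight and the contracted ones spread, with both contracted libraries numbered 1 lowest. The averaged log2 change was 0.68 ± 0.11 (SE; edgeR adjusted p = 0.000337), and the within-animal ratio was 1.26 to 2.0, above 1 in 6 of 6 animals. Leaving out the 4 libraries gave 0.37 ± 0.12, which did not pass (edgeR adjusted p = 0.284), although both remaining contracted legs stayed above every resting leg.

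The partners changed unequally. The log2 ratio of Bag3 to Hspb8 within a library went from -2.51 ± 0.23 in 6 uncontracted to -3.64 ± 0.16 (SD) in 6 contracted libraries, a difference of -1.14 (exact permutation test, 2-sided, adjusted p = 0.00271 over 5 pairs). No split of 6 against 6 can give an unadjusted p below 0.00216, the value reached here, and the ranges of the 2 legs did not overlap. Legs of 1 animal are paired by title. With signs flipped within the 6 animals, each of the 5 ratios of this kind had p = 0.03125 (exact test). That is the smallest p that 64 sign patterns can give. For the animals of the 4 libraries in doubt this pairing is in doubt too. The difference was -1.17 without the 4 libraries (exact permutation test, adjusted p = 0.0446). That test splits 2 against 6 libraries without regard to animals, and its smallest unadjusted p, 0.0357, was the value reached.

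Hspb1 held 2.69 to 5.94 times as many CPM in the contracted as in the resting leg of the same animal, beside 2.62 to 5.29 for Hspb8. It had 36.1, 46.3 and 56.0 CPM in uncontracted controls and 96.9, 137 and 180 CPM in contracted ones. Myc animals had 40.0, 57.5 and 32.1 CPM uncontracted and 115, 209 and 191 CPM contracted. The 2 legs did not overlap in either genotype, and the contracted libraries numbered 1 were the lowest contracted ones. The averaged log2 change was 1.75 ± 0.16 (SE; edgeR adjusted p = 1.17e-07), and 1.25 ± 0.17 without the 4 libraries. The gene nonetheless stayed among the less abundant ones: its contracted median of 159 CPM was below that of Bag3, 209 CPM, and the ranges of the pair overlapped.

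Cryab had 333, 418 and 391 CPM in uncontracted controls and 493, 610 and 445 CPM in uncontracted Myc legs. Contracted controls had 698, 859 and 897 CPM and contracted Myc legs 856, 973 and 915 CPM. All contracted values lay above all resting ones. The averaged log2 change was 0.93 ± 0.09 (SE; edgeR adjusted p = 3.69e-07), the within-animal ratio 1.59 to 2.30, and the change without the 4 libraries 0.81 ± 0.12. Its increase was smaller than that of Hspb1, with a difference of 0.77 in the log2 ratio of Hspb1 to Cryab (exact permutation test, adjusted p = 0.00649). Without the 4 libraries that difference was 0.44 and did not pass (exact permutation test, adjusted p = 0.179).

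Hspb7, which binds filamin C and actin, had 198, 242 and 206 CPM in uncontracted controls and 218, 219 and 221 CPM in uncontracted Myc legs. Contracted controls had 339, 452 and 623 CPM and contracted Myc legs 663, 601 and 712 CPM. Resting values were close to each other, and contracted control 1 was the lowest contracted library. The averaged log2 change was 1.32 ± 0.11 (SE; edgeR adjusted p = 4.18e-08), with 1.71 to 3.23 times the CPM within animals, and 1.13 ± 0.12 without the 4 libraries.

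**Figure D2:**
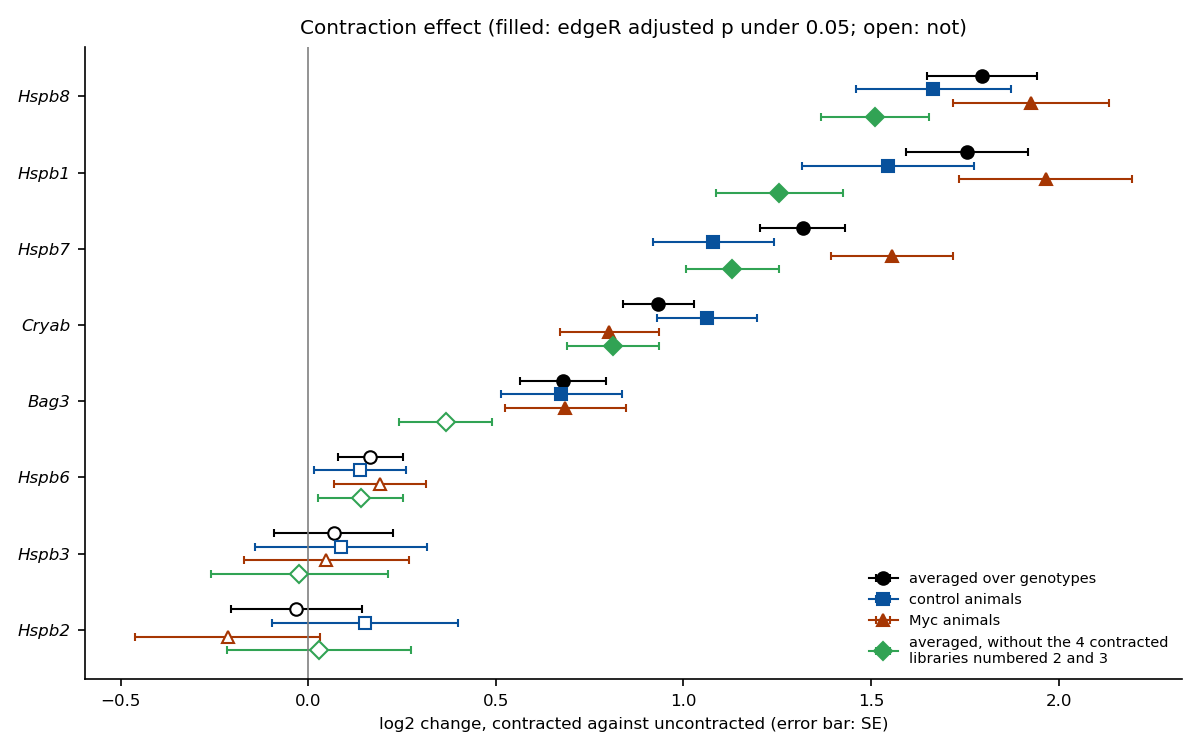
Log2 change with contraction of each of the 8 genes, with error bars of 1 SE, averaged over genotypes, in each genotype, and averaged without the 4 libraries in doubt. Hspb8 (1.80), Hspb1 (1.75), Hspb7 (1.32), Cryab (0.93) and Bag3 (0.68) are filled, having passed in the averaged effect, and Hspb6, Hspb3 and Hspb2 are open. Without the 4 libraries Bag3 (0.37) is open too.

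Hspb6, Hspb2 and Hspb3 did not pass. Hspb6 had 2893, 2930.1 and 2806 CPM in uncontracted and 2993, 3564 and 3187 CPM in contracted controls. In Myc animals it had 2793, 2822 and 3044 CPM uncontracted and 3352, 3144 and 3638 CPM contracted. The contracted leg was higher in 6 of 6 animals, by 1.03 to 1.22 times, but the legs overlapped, and the averaged log2 change of 0.16 had a 95% interval of -0.02 to 0.35 (edgeR adjusted p = 0.295). It was 0.14 when the 4 libraries were left out (edgeR adjusted p = 0.893). Hspb2 lay between 13.4 and 29.1 CPM and Hspb3 between 18.2 and 30.6 CPM over all 12 libraries, on 22 to 46 reads a library. Hspb2 had a log2 difference of -0.03 (95% interval -0.39 to 0.33) and Hspb3 of 0.07 (-0.26 to 0.40), against 0.029 and -0.023 without the 4 libraries. At this depth, changes of a size inside those intervals remain possible for the pair, and the intervals are not limits of detection.

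The shared locus of Hspb2 and Cryab therefore gave unlike readings. The log2 ratio of Hspb2 to Cryab differed by -0.95 between contracted and uncontracted libraries (exact permutation test, adjusted p = 0.00271), and by -0.76 without the 4 libraries (exact permutation test, adjusted p = 0.0446). The direction of this ratio was the same in every library left out in turn, -1.04 to -0.84.

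**Figure D3:**
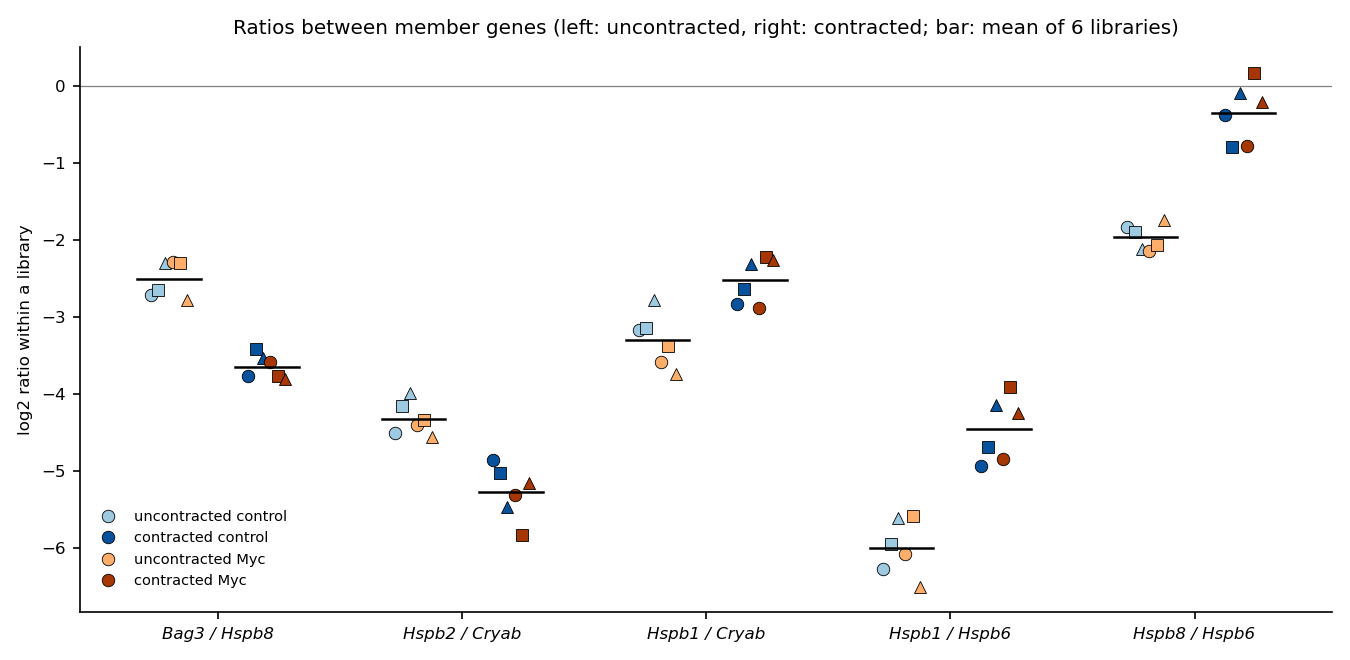
Log2 ratios between pairs of the genes within each library, uncontracted left and contracted right, with the mean of 6 libraries as a bar. Circles, squares and triangles are libraries numbered 1, 2 and 3 in each group. The Bag3 to Hspb8 ratio fell by 1.14 and the Hspb8 to Hspb6 ratio rose by 1.62, without overlap of the legs.

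The unequal increases changed the make-up of the family's transcripts. The 8 genes summed to 4278 to 4837 CPM (median 4505) in uncontracted and 6649 to 8897 CPM (median 7760) in contracted libraries. Hspb6 made up 61.8 to 65.6% of that sum at rest and 35.8 to 48.7% after contraction. Hspb8 made up 14.6 to 18.9% at rest and 27.4 to 40.5% after contraction, and in contracted Myc 2 it exceeded Hspb6. The 2 contracted libraries outside the 4 in doubt summed to 6649 and 7155 CPM, with Hspb6 at 45.02 and 46.84% and Hspb8 at 34.8 and 27.4%. The log2 ratio of Hspb8 to Hspb6 differed by 1.62 and that of Hspb1 to Hspb6 by 1.54 between the legs (exact permutation tests, adjusted p = 0.00271 each). With the 4 libraries left out the differences were 1.39 and 1.11 (exact permutation tests, adjusted p = 0.0446 each). In contracted libraries the ranges of Hspb6 and Hspb8, of Cryab and Hspb7, and of Bag3 and Hspb1 overlapped, where at rest they had been separate. Within single contracted libraries Cryab stayed above Hspb7 and Bag3 above Hspb1 in 6 of 6, and Hspb6 above Hspb8 in 5 of 6.

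**Figure D4:**
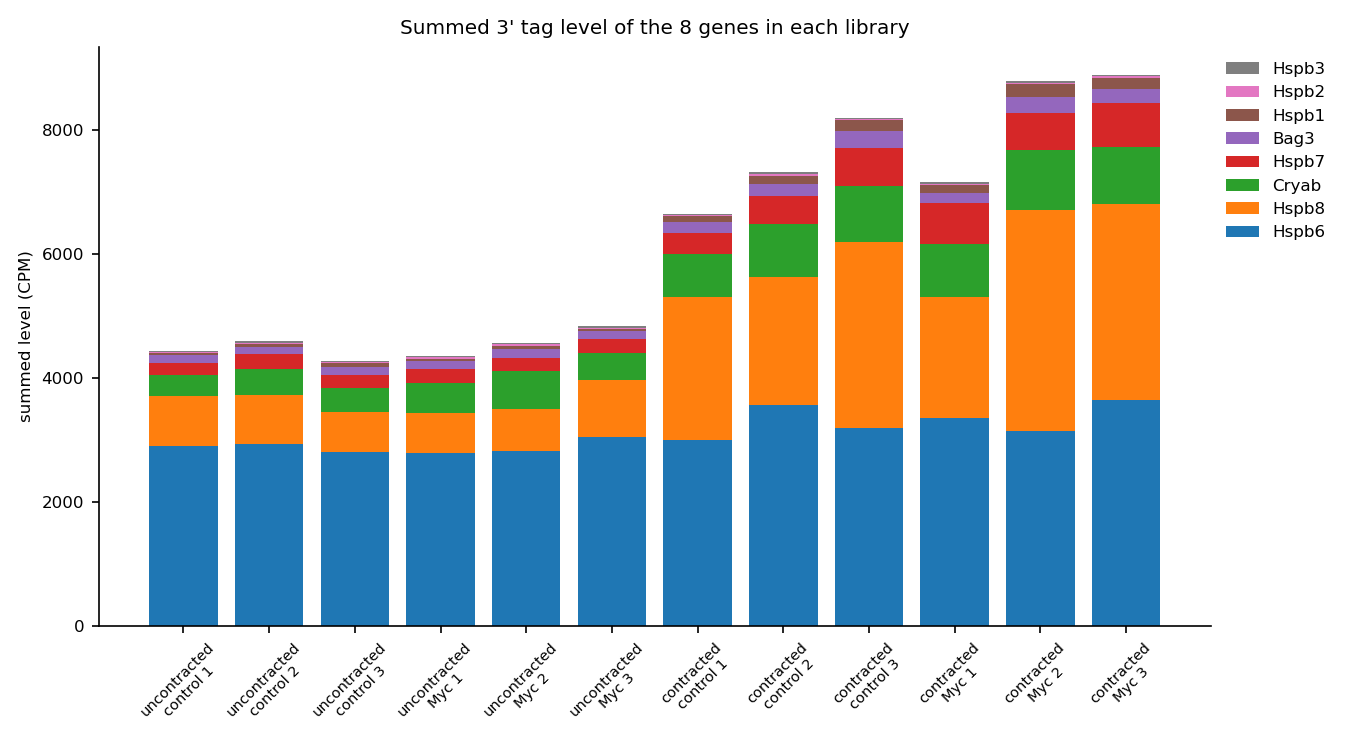
Summed CPM of the 8 genes in each library, stacked by gene, on a linear axis from 0. Uncontracted libraries sum to 4278 to 4837 CPM, mostly Hspb6, and contracted ones to 6649 to 8897 CPM, with the added height mostly in Hspb8.

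Within each genotype the same 5 genes rose, although both genotypes' results use the same fit. In controls 5 of 8 rose, against 2.38% of all genes called higher, with log2 changes of 1.67 ± 0.21 for Hspb8, 1.54 ± 0.23 for Hspb1, 1.08 ± 0.16 for Hspb7, 1.06 ± 0.13 for Cryab and 0.67 ± 0.16 for Bag3 (edgeR adjusted p = 0.0210 for Bag3). In Myc animals 5 of 8 rose, against 3.45% called higher, with 1.97 ± 0.23 for Hspb1, 1.93 ± 0.21 for Hspb8, 1.56 ± 0.16 for Hspb7, 0.80 ± 0.13 for Cryab and 0.69 ± 0.16 for Bag3 (edgeR adjusted p = 0.0146 for Bag3). Without the 4 libraries, which leaves 1 contracted library a genotype assumed to vary like the other groups, 3 of 8 rose in controls and 4 of 8 in Myc animals, against 0.879 and 0.769% of all genes called higher. Hspb7 in controls was then 0.67 (edgeR adjusted p = 0.103), and Bag3 was 0.44 in controls and 0.29 in Myc animals (edgeR adjusted p = 0.633 and 0.917). Bag3 in controls also missed the threshold without uncontracted control 1, 2 or 3 or contracted control 3, at 0.51 to 0.70 (edgeR adjusted p up to 0.193). Bag3 in Myc animals did so without uncontracted Myc 1 or 2 or contracted Myc 2 or 3, at 0.51 to 0.67 (edgeR adjusted p up to 0.160).

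Labelled Myc over-expression was not followed by a called change in any of the 8 genes. In uncontracted legs 0 of 8 passed, as did 0 of all genes (0% by edgeR, 421 genes at an unadjusted p under 0.05, and 1 gene by DESeq2), with log2 differences of -0.12 for Hspb1 to 0.40 for Cryab. Cryab, at 0.40 ± 0.13, was higher in every Myc than in every control resting leg, with an adjusted p of 0.564 by edgeR, and 7.26% of all genes were higher without overlap there. In contracted legs 0 of 8 passed (0% of genes by edgeR, 204 at an unadjusted p under 0.05, 0 by DESeq2). Hspb7, at 0.47 ± 0.16, had an adjusted p of 0.999 by edgeR. Its TMM-scaled levels were higher there in every library labelled Myc, as in 4.21% of all genes, while by CPM of the library total contracted control 3 (623 CPM) stood above contracted Myc 2 (601 CPM). The difference between the genotypes' contraction effects passed in 0 of 8 (0% of genes by edgeR, 331 at an unadjusted p under 0.05, 0 by DESeq2). It ranged from -0.37 for Hspb2 to 0.48 for Hspb7, whose 95% interval was 0.01 to 0.95. With the 4 libraries left out, the contracted legs compared are 1 library against 1, contracted Myc 1 against contracted control 1. Hspb7 then differed by 0.91 there, without any measured spread between contracted libraries of a genotype. The difference between the genotypes' contraction effects then rests on those same contracted libraries. Since Myc reads go against the labels in 4 contracted libraries, the full comparisons of contracted legs and of contraction effects rest on groups whose labels are in doubt.

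Other chaperone genes were read from lists. Of 26 measured genes of the HSP70, HSP90 and J-domain families (32 listed), 8 rose, 0 fell and 18 did not pass, against 5.71% of all genes called higher, with a median log2 change of 0.21. They included Dnajb1, the J-domain partner of HSP70 in heat shock, at 3.30 to 14.2 CPM uncontracted and 27.9 to 80.9 CPM contracted (2.44 ± 0.28). Hsp90aa1, the inducible HSP90, rose by 1.51 ± 0.19 and the J-domain gene Dnajb4 by 1.55 ± 0.23. Hspa1a, an inducible HSP70, had 5 to 15 reads a library uncontracted and 44 to 166 contracted, and Hspa1b 0 to 2 and 19 to 73. This pair is near-identical, so the division of reads between its members is uncertain. These 5 were the ones that rose among the 26 without the 4 libraries, where 1.32% of all genes were called higher.

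Of 19 measured partners and substrates of chaperone-assisted selective autophagy (20 listed), 3 rose, 0 fell and 16 did not pass, against 5.71% of all genes called higher, with a median of 0.06. Flnc, which encodes the filamin C that Bag3 and HSPB8 clear, had 35.5, 63.0 and 67.7 CPM in uncontracted controls and 204, 238 and 255 CPM in contracted ones. Its averaged log2 change was 2.23 ± 0.16 (SE; edgeR adjusted p = 3.75e-09), above that of each of the 8 genes, and 1.78 ± 0.16 without the 4 libraries. Gabarapl1, an autophagosome protein gene, rose by 0.80 ± 0.16 and Vps18, a gene of vesicle tethering at the lysosome, by 1.22 ± 0.30. Neither passed without the 4 libraries, where 1 of 19 did, against 1.32% of all genes.

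Of 14 measured Z-disc and cytoskeletal clients (16 listed), 2 rose, Vim at 0.79 and Actb at 0.44, with a median of 0.06. Over all genes 5.71% were called higher, and 2 of 14 is a small count to set beside that share. At an unadjusted p under 0.05 by edgeR, in either direction, there were 10 of the 14, against 1346 of all 6676 genes. In CPM the legs overlapped for both genes that rose. Vim had 39.4 to 69.6 CPM uncontracted and 64.6 to 108.9 CPM contracted, and Actb 327 to 669 and 468 to 755 CPM. Without the 4 libraries the median was -0.045, with Vim at only 0.42 and Actb at only 0.15. Of 4 measured heat shock factor genes (5 listed) and 3 other BAG genes (5 listed) none passed in the averaged effect by edgeR, and 0 had an unadjusted p under 0.05. The small heat shock genes Cryaa, Hspb9 and Odf1 had 0 reads in all 12 libraries.

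**Figure D5:**
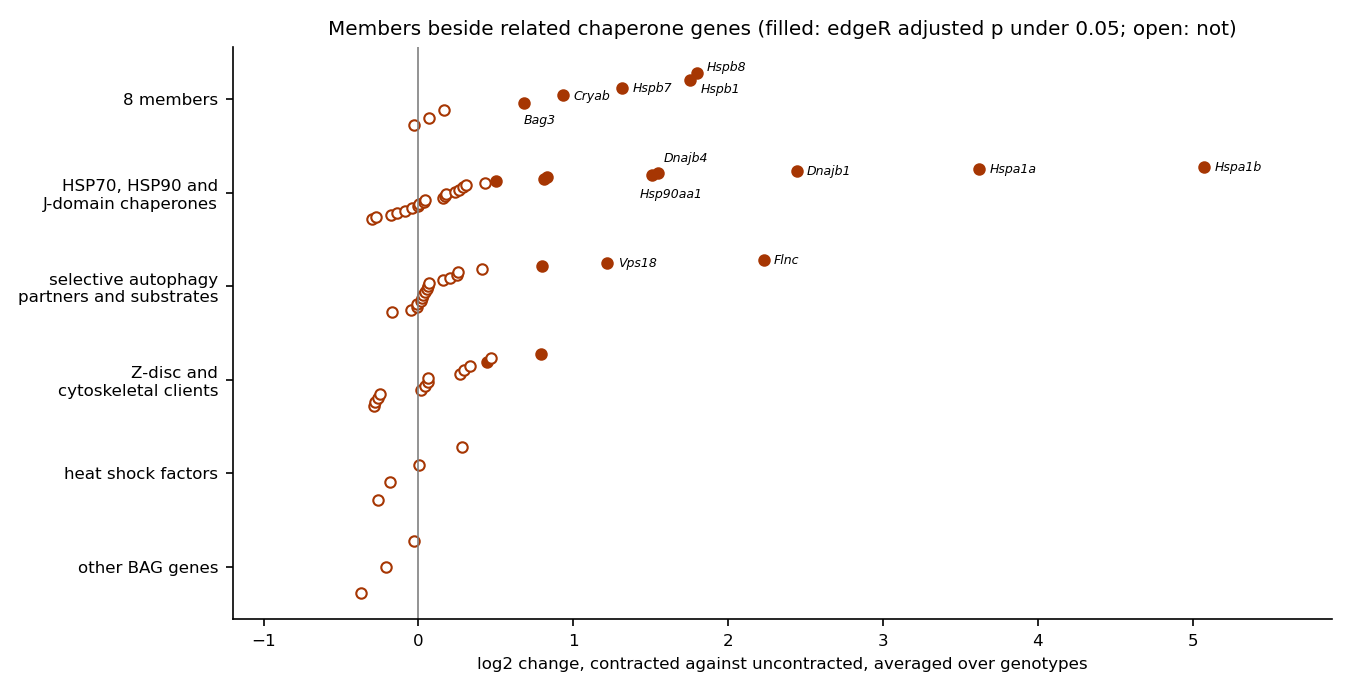
Averaged log2 change with contraction for the 8 genes and for measured genes of the related lists, filled where the edgeR adjusted p was under 0.05. In the lists the points far to the right are Hspa1b, Hspa1a, Dnajb1 and Flnc, and most other points lie near 0.

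Markers of other cells moved with contraction to unlike extents. The neutrophil markers S100a8 and S100a9 rose, and the 5 listed markers summed to 0 to 3.91 CPM in uncontracted and 4.87 to 70.3 CPM in contracted libraries, while Ly6g and Cxcr2 had 0 reads throughout. All 4 haemoglobin genes rose in the averaged effect, with a median log2 change of 0.80. In controls the median was 0.58, with 0 of 4 called by edgeR, against 2.38% of all genes called higher. In Myc animals it was 1.01, with 2 of 4 called, against 3.45%. Without the 4 libraries both neutrophil genes and all 4 haemoglobin genes still passed, with medians of 5.94 and 1.11. The part of these cells in the results was not tested. None of the 9 fibre and 8 slow-fibre markers passed in the averaged effect by edgeR, with medians of 0.00455 and -0.02. At an unadjusted p under 0.05 by edgeR there were 4 and 0 of them, against 1346 of all 6676 genes. Over all genes tested 7.47% were called in either direction and 5.71% higher. For lists this short, 0 called is near those shares. Of 5 measured smooth muscle markers Acta2 fell and of 3 macrophage markers Csf1r fell, but without the 4 libraries neither passed, at -0.31 and -0.16 (edgeR adjusted p = 0.772 and 0.939). Cd68, a macrophage marker called higher, did not pass the low-count filter without them, so its count supports nothing here. Of 4 endothelial and 4 fibroblast markers none passed (0 and 1 at an unadjusted p under 0.05 by edgeR). By group, the 5 neutrophil markers summed to 7.25 to 70.3 CPM in contracted controls and 4.87 to 52.8 CPM in contracted Myc legs.

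By root mean square difference of centred log2 CPM over the 12 libraries, among 2932 genes of at least 20 CPM, the gene most like Hspb8 was Rcan1, a calcineurin regulator (0.17), followed by Trib1 (0.23). Nearest to Bag3 were Mcl1, an anti-apoptotic BCL2 relative (0.11), and Nrap, a Z-disc and myotendinous junction gene (0.16). Hspb1 lay nearest to Trim63, the muscle ubiquitin ligase MuRF1 (0.23), and Cnksr1 (0.24). Cryab lay nearest to Ets2 (0.24) and Vgll2 (0.24), and Hspb7 to Ehd4 (0.28) and Lmcd1 (0.29). Over the 8 libraries outside the 4 in doubt, Rcan1 and Mcl1 were still first for Hspb8 and Bag3, and Trim63 ranked 2 for Hspb1. Nrap then ranked 50 for Bag3, and Ets2 and Vgll2 ranked 29 and 27 for Cryab.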

How the data were processed

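RNA was extracted with Trizol and 3′ end libraries were made with a QuantSeq kit, per the labels' protocols. The authors deposited whole read counts per gene in 1 table, not normalized, described as modified without further detail. FastQC 0.11.5, STAR 2.5.2a, SAMtools, HTSeq 0.6.0 and mm10 are listed, without roles, per the submitters' processing notes. Annotation and strand setting are not given in the sources used here. Reads carry no stated molecular identifiers, so the limit from a count of 0 covers counting error only.

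The whole table was fitted in edgeR 4.0.16 (R 4.3.3): TMM factors, genes kept by filterByExpr at its minimum count of 10, 4 group means over 12 libraries, and 2-sided quasi-likelihood F tests of 6 comparisons, adjusted by Benjamini-Hochberg over 6676 genes. An SE is the log2 change divided by the square root of F. Ratios of 5 gene pairs were tested by exact permutation over 924 splits. The steps were tested on simulated data. P-values measure the spread between these libraries only. Legs of 1 animal share a number in the titles. Their deviations from group means correlated at -0.122 to 0.112. The genes, lists and tests, and the doubt about 4 libraries, were chosen with earlier results of these data known. All 8 genes are named. List genes are named if called in the averaged contraction effect, at most 6 a list by smallest p, and the 2 nearest genes are named for each gene that rose. Alternatives were RLE factors or library totals as scaling, DESeq2 1.42.0, no filter on low counts, a filter of 20 reads in 3 or more libraries, the animal or number as a block, the 6 libraries of a comparison alone, each library left out, the 4 doubted libraries left out and, for ratios, signs flipped within animals.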

Additional observations from a re-analysis of the deposited data

How the results depend on the processing

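Across 944 recalculated gene results, 879 kept direction and side of the threshold, 12 lost the call, 0 gained one and 53 changed sign. The causes of these changes were not tested. With the replicate block the counts of called genes were 443 (averaged contraction), 172 (controls) and 228 (Myc animals), and 0 in the other 3 comparisons. The block changed no call of the 8 genes. Flipping signs within animals, an alternative chosen after seeing the data, kept all 5 ratio calls (differences of -1.14 to 1.62). Depth limits Hspb2 and Hspb3 most, at 22 to 46 reads a library.

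Without the low-count filter the calls were 305 in controls, 433 in Myc animals, 24 for Myc in uncontracted legs, 5 for Myc in contracted legs and 18 for the interaction. Without the 4 doubted libraries they were 107 for averaged contraction, 67 in controls, 59 in Myc animals and 6 for Myc in uncontracted legs. The last was 2 from its 6 libraries alone and 1 with DESeq2. Leaving out 1 library gave 350 to 723 calls for averaged contraction and 116 (contracted control 3) to 313 (contracted control 1) in controls. In Myc animals it gave 147 to 517, moving over 1.5 times without contracted Myc 1 (517), 2 (152) or 3 (147) or uncontracted Myc 2 (151) or 3 (173). It gave 0 to 2 for Myc in uncontracted legs, 0 for Myc in contracted legs and 0 to 4 for the interaction. The Hspb1 to Cryab ratio difference was 0.44 without the 4 libraries.

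Sign changes concerned uncalled values. With library totals as scaling, Myc in uncontracted legs gave 0.00464 for Hspb6 and 0.026 for Hspb7, and the interaction gave -0.000598 for Bag3. Without the 4 libraries averaged contraction gave 0.029 for Hspb2 and -0.023 for Hspb3, and Hspb3 in controls gave -0.18. Myc in contracted legs then gave -0.30 for Hspb8 and -0.11 for Bag3, and the interaction 0.31 for Hspb3, -0.25 for Hspb8 and -0.14 for Bag3. With 1 library left out, Hspb2 spanned -0.15 to 0.051 in averaged contraction and -0.067 to 0.29 in controls. Hspb3 spanned -0.00177 to 0.17 (averaged), -0.034 to 0.20 (controls) and -0.078 to 0.26 (Myc animals). For Myc in uncontracted legs the spans were -0.013 to 0.35 (Hspb2), -0.014 to 0.34 (Hspb3), -0.13 to 0.041 (Hspb6), -0.10 to 0.14 (Hspb7), -0.30 to 0.061 (Hspb8) and -0.018 to 0.082 (Bag3). For Myc in contracted legs they were -0.012 to 0.10 (Hspb6) and -0.12 to 0.22 (Bag3), and for the interaction -0.17 to 0.19 (Hspb3), -0.020 to 0.16 (Hspb6) and -0.16 to 0.17 (Bag3).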
